A study of Mus musculus with 8 samples.

Results

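Ocel1, Slc15a2, Mro, Ppfibp1, Zfp236, Gaa and Vps39 are 7 mouse genes that each had at least 1 array probe brighter and at least 1 dimmer in BTBR/R mice than in B6 mice. They were chosen from the strain comparison itself, among 6508 genes with 2 or more probes that were well above background on all 8 arrays. The rule asked for probes of that kind with changes of at least 2-fold and a limma adjusted p under 0.05 in both directions. No p-value is therefore given for their own probes, and their changes are a description. The 7 genes had 27 of the 56605 probes, and 21 of these 27 were well above background on every array, which is called detected from here on.

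BTBR/R is the BTBRTF/ArtRbrc subline of the BTBR strain, a model of autism-like behaviour that carries the T, Itpr3tf and at alleles, and B6 is C57BL/6J. RNA came from the dissected whole cerebral cortex and striatum of 4 male mice per strain, each on an array of its own. All were 4 months old but for a single mouse, BTBR/R replicate 1, aged 6 months. The 4 B6 samples lay in a single column of the slide and the 4 BTBR/R samples in the other, so the column and the strain cannot be told apart, and the B6 mice were bought from a supplier whereas BTBR/R came from a resource centre.

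A probe on this array reads only the 60 bases it matches, in RNA that was copied from the poly(A) tail. Mammalian genes often make several transcripts, through different starts, splice choices and polyadenylation sites, and probes named for the same gene can lie on different ones. The 7 genes have unrelated roles. Gaa encodes the acid alpha-glucosidase that breaks down glycogen in the lysosome, and Vps39 encodes a subunit of the HOPS complex that tethers late endosomes to lysosomes. Slc15a2 encodes the peptide transporter PEPT2, Ppfibp1 encodes the scaffold protein liprin beta 1, and Zfp236 encodes a zinc finger protein. Mro (maestro) encodes a protein with HEAT-like repeats that is known from the testis, and Ocel1 encodes a protein with an occludin and ELL domain whose role is little known.

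The probe sequences show which stretch of RNA each opposed value stands for, and those of Ocel1, Slc15a2, Gaa and Vps39 are given here as the array design lists them, 5′ to 3′ on the strand of the gene, with mm9 positions. A probe that spans an intron is printed whole, and the other probes by 30 of their 60 bases. Capitals mark AATAAA or ATTAAA, the hexamers that precede most polyadenylation sites, searched on the strand of the probe only.
Ocel1, higher, chr8:73896648-73896850, + strand, across an intron: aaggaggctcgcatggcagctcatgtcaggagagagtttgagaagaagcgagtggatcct
Ocel1, higher, chr8:73897027-73897056, + strand: ttccagggAATAAAcatggattagacacct
Ocel1, lower, chr8:73898068-73898097, + strand: ggtgccctccgtggaccatgtatccagggg
Ocel1, lower, chr8:73903201-73903230, + strand: ctgtgtggttgggacagATTAAAacccata
Slc15a2, lower, chr16:36775747-36781681, - strand, across an intron: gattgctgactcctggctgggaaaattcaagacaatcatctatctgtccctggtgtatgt
Slc15a2, higher, chr16:36750285-36750314, - strand: ttttaaagggcgttaagactgatctgtgaa
Gaa, higher, chr11:119134602-119134631, + strand: agcttaagttcttatccagcccagaactac
Gaa, lower, chr11:119146727-119146756, + strand: gaagtgtacttacttttAATAAAaaggata
Vps39, higher, chr2:120142641-120142670, - strand: tcagggagccggcaagaggtacgcagagca
Vps39, lower, chr2:120142357-120142386, - strand: cttcttatgaactgtgtttgaagcagtaga

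At least 1 of the hexamers stood in 5 of the 21 detected probes of the 7 genes, against 15.1% of the 28548 probes detected on all 8 arrays. These were a rising and a falling probe of Ocel1, the falling probe of Gaa and the 2 overlapping probes of Mro with positive changes. The BTBR/R sequence under the probes was not examined here.

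Over the whole array, 12697 of 56605 probes met the rule (22.4%), and 89.9% of them were higher in BTBR/R. That split was 41.0% with normexp background correction and 24.7% with quantile normalization. Among the 28548 detected probes, 628 met it (2.20%), 298 higher (1.04%) and 330 lower (1.16%). Of the 21 detected probes of the 7 genes, 8 were higher, 8 were lower and 5 did not reach the rule, a share that the choice of the genes fixed. In B6 mice 64.5% to 66.8% of all probes were detected, with a lowest detected signal of 14.5 to 17.8, and in BTBR/R mice 53.5% to 57.2%, with a lowest detected signal of 36.1 to 47.1. No probe was saturated. The median change over detected probes was 0.00147 on the log2 scale.

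Opposition of this size was rare. The median gap between the highest and the lowest change of a gene was 0.15 on the log2 scale over the 6508 genes, and the 95th percentile was 0.89. The gaps of the 7 genes ran from 2.28 (Vps39) to 4.71 (Ocel1), and the rule of 2-fold changes in both directions made them large. Gaps above that of Vps39 also occurred outside the 7, as in Cx3cr1 (2.41) and Rps13 (2.29). A gap of 1 or more was found in 257 of the 6508 genes. Of the 252 genes with 2 or more detected probes and at least 1 that met the rule, 22 had every detected probe past it in 1 direction, and 223 had some past it in 1 direction and some not. In 124 of those 245 genes called in a single direction, a further probe had a change of the opposite sign, however small. Changes of both signs, of any size, were found in 2759 of the 6508 genes. The 7 genes made up 2.78% of the 252.

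**Figure D1:**
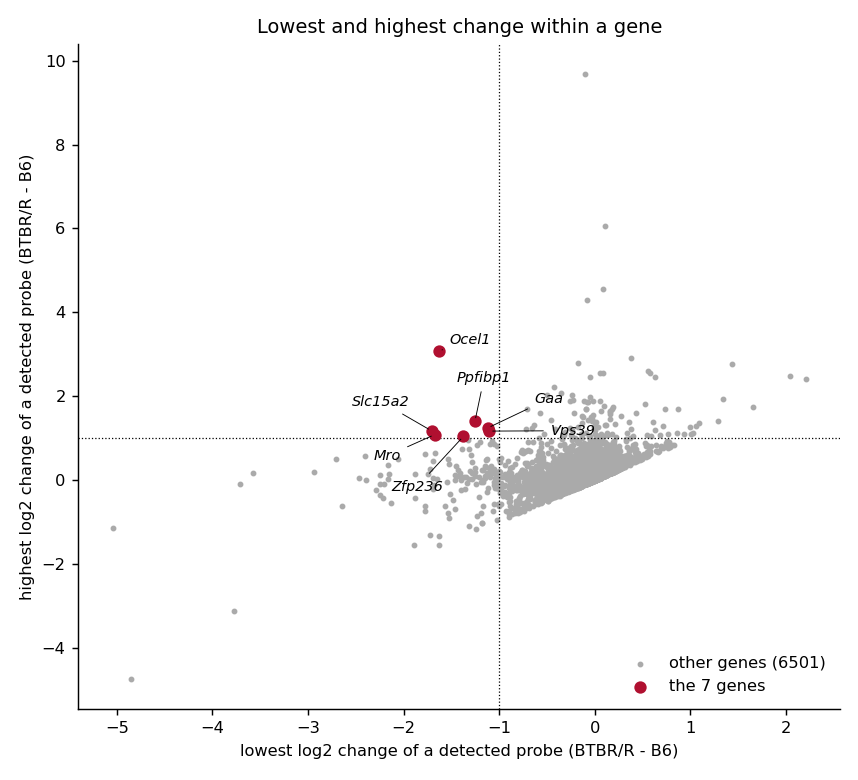
For each of 6508 genes with 2 or more detected probes, the lowest log2 change (x axis) is plotted against the highest (y axis), BTBR/R minus B6. Red points are the 7 genes, grey points the other 6501, and dotted lines mark 2-fold. The 7 genes are alone past both lines in the upper left because the rule chose them there. Ocel1 is the uppermost of the 7, at a highest change of 3.08.

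Ocel1 had the largest opposition, with 2 rising probes at the 5′ end and 2 falling probes further on. Both rising probes carry the RefSeq name NM_029865. Levels are given as the scaled signal, that is, log2 of the processed signal after subtraction of the array's 75th percentile. For the intron-spanning probe it was -0.76, -0.80, -0.84 and -0.83 in B6 replicates 1 to 4 and 2.18, 2.30, 2.30 and 2.30 in BTBR/R replicates 1 to 4. The means were -0.81 ± 0.03 and 2.27 ± 0.06 (SD, n = 4), a change of 3.08 (SE 0.047) or 8.45-fold. The other rising probe, 277 bases downstream between centres, was at 0.20, 0.27, 0.38 and 0.32 in B6 and at 3.23, 3.22, 3.30 and 3.27 in BTBR/R, 7.81-fold higher. The strains lay far apart at both probes, and their changes (3.08 and 2.97) differed by 0.11.

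The falling probes of Ocel1 are named for the cDNA clones AK163762 and AK143433. The first, 1041 bases beyond the nearer rising probe, was at -1.29, -0.99, -1.06 and -1.02 in B6 and at -2.47, -2.37, -2.52 and -2.41 in BTBR/R, a change of -1.35 (SE 0.077). The second, another 5163 bases on, was at -0.81, -0.68, -0.59 and -0.68 in B6 and at -2.47, -2.36, -2.09 and -2.37 in BTBR/R, a change of -1.63 (SE 0.093). Every BTBR/R mouse was below every B6 mouse at both. The AK163762 probe borders, on the opposite strand, a probe for Nr2f6 (a nuclear receptor), with 60 bases between their centres. That probe did not fall: it changed by 0.28 (SE 0.074, limma adjusted p = 0.0212), 1.21-fold. The probes of Use1, the gene just upstream of Ocel1 on the same strand, changed by -0.05 and -0.06 (limma adjusted p = 0.611 and 0.348).

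Slc15a2 takes up short peptides such as carnosine together with protons, and in brain it is known from astrocytes and the choroid plexus. Its 5′ probe for NM_001145899, which joins exons across an intron, was at -0.16, -0.18, -0.24 and -0.38 in B6 and at -2.08, -1.93, -1.88 and -1.90 in BTBR/R, 3.26-fold lower (log2 change -1.71, SE 0.071). The 3′-most probe, for NM_021301, was at -0.25, -0.48, -0.37 and -0.46 in B6 and at 0.85, 0.82, 0.77 and 0.71 in BTBR/R, 2.26-fold higher (1.18, SE 0.067). The strains did not overlap at either probe, and the probes lie 28400 bases apart. The 5 probes that were not detected on all arrays lie around and between them, and none was detected on more than 3 B6 arrays or more than 1 BTBR/R array. At these dim probes neither strain was measured on all of its arrays, so no change is given for them.

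Ppfibp1 encodes liprin beta 1, a partner of the liprins that organise presynaptic active zones and cell adhesions. Its 5′ probe, for NM_026221, was at -0.71, -0.80, -0.83 and -0.91 in B6 and at -1.62, -2.44, -2.07 and -2.15 in BTBR/R, 2.38-fold lower (-1.25, SE 0.162). The 3′-most probe, for NM_001170433, was at -0.39, -0.43, -0.42 and -0.20 in B6 and at 1.03, 1.07, 1.16 and 0.93 in BTBR/R, 2.65-fold higher (1.41, SE 0.075). These were the values of separate groups at both ends of a 33.0 kb span. The probe between them, for ENSMUST00000149203, had overlapping strains, with -1.59 ± 0.16 in B6 and -1.96 ± 0.40 in BTBR/R (SD, n = 4).

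Gaa had its opposed probes at the outer ends of a 12.2 kb span. The 5′ probe, for ENSMUST00000106258, was at -2.52, -2.46, -2.40 and -2.77 in B6 and at -1.16, -1.52, -1.20 and -1.29 in BTBR/R, 2.37-fold higher (1.25, SE 0.110). The 3′ probe, for NM_008064 and with AATAAA near its last base, was at 5.85, 5.75, 5.70 and 5.68 in B6 and at 4.70, 4.56, 4.68 and 4.56 in BTBR/R, 2.18-fold lower (-1.12, SE 0.061). Both separated the strains. The second NM_008064 probe, nearer the 5′ end, changed by only -0.23 (SE 0.077), from -0.56 ± 0.11 to -0.79 ± 0.10 (SD, n = 4).

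Vps39 had the closest pair of opposed probes. Both are named for NM_147153, and their centres are 284 bases apart. The upstream probe was at 1.98, 2.06, 1.94 and 1.97 in B6 and at 3.13, 3.16, 3.15 and 3.20 in BTBR/R, 2.25-fold higher (1.17, SE 0.045). The downstream probe was at 3.67, 3.76, 3.74 and 3.77 in B6 and at 2.61, 2.63, 2.70 and 2.59 in BTBR/R, 2.15-fold lower (-1.10, SE 0.047). The SD within a strain was 0.03 to 0.05 at these probes. Another probe, for ENSMUST00000145193 and 3369 bases upstream, changed by 0.21 (SE 0.078).

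Mro, on the + strand of chromosome 18, was higher in BTBR/R in its middle and lower at its 3′ end. Its probes at chr18:74038324-74038383 and chr18:74038326-74038385 share 58 bases and gave changes of 0.98 (SE 0.078) and 1.09 (SE 0.053), so that only the second passed 2-fold. The second was at -0.52, -0.48, -0.50 and -0.60 in B6 and at 0.60, 0.60, 0.58 and 0.46 in BTBR/R. The 3′-most probe, for ENSMUST00000136473 and 2537 bases on, was at -0.96, -1.14, -1.06 and -1.17 in B6 and at -3.07, -2.70, -2.60 and -2.65 in BTBR/R, 3.19-fold lower (-1.67, SE 0.113). The strains did not overlap at these probes. The 5′-most probe changed by -0.39 (SE 0.083), short of 2-fold.

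Zfp236, on the - strand of chromosome 18, had the least secure opposition. Its 3′-most probe at chr18:82765008-82765067 was at -1.50, -1.56, -1.47 and -1.58 in B6 and at -2.60, -3.25, -2.93 and -2.84 in BTBR/R, 2.59-fold lower (-1.37, SE 0.130). The probe 1698 bases upstream was at -2.84, -3.03, -3.37 and -2.98 in B6 and at -2.57, -2.10, -0.98 and -2.39 in BTBR/R, 2.06-fold higher (1.04, SE 0.342). The strains did not overlap there, but BTBR/R replicate 3 stood far above the other BTBR/R mice, and without it the change was 0.70. The opposition of Zfp236 fell short of the rule when any mouse other than BTBR/R replicate 1 was left out, and also with normexp, quantile or median scaling, the filter on dim probes, the methods' t-test or the replicate block. The probe at the 5′ end was detected on all 4 B6 arrays and on 0 BTBR/R arrays, and on the processed signal its level in BTBR/R was at least 1.46-fold lower than in B6, whereas with normexp correction its log2 change was -0.25, below that bound. That bound sets the B6 mean against the higher of the BTBR/R value and the lowest detected signal of each array.

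**Figure D2:**
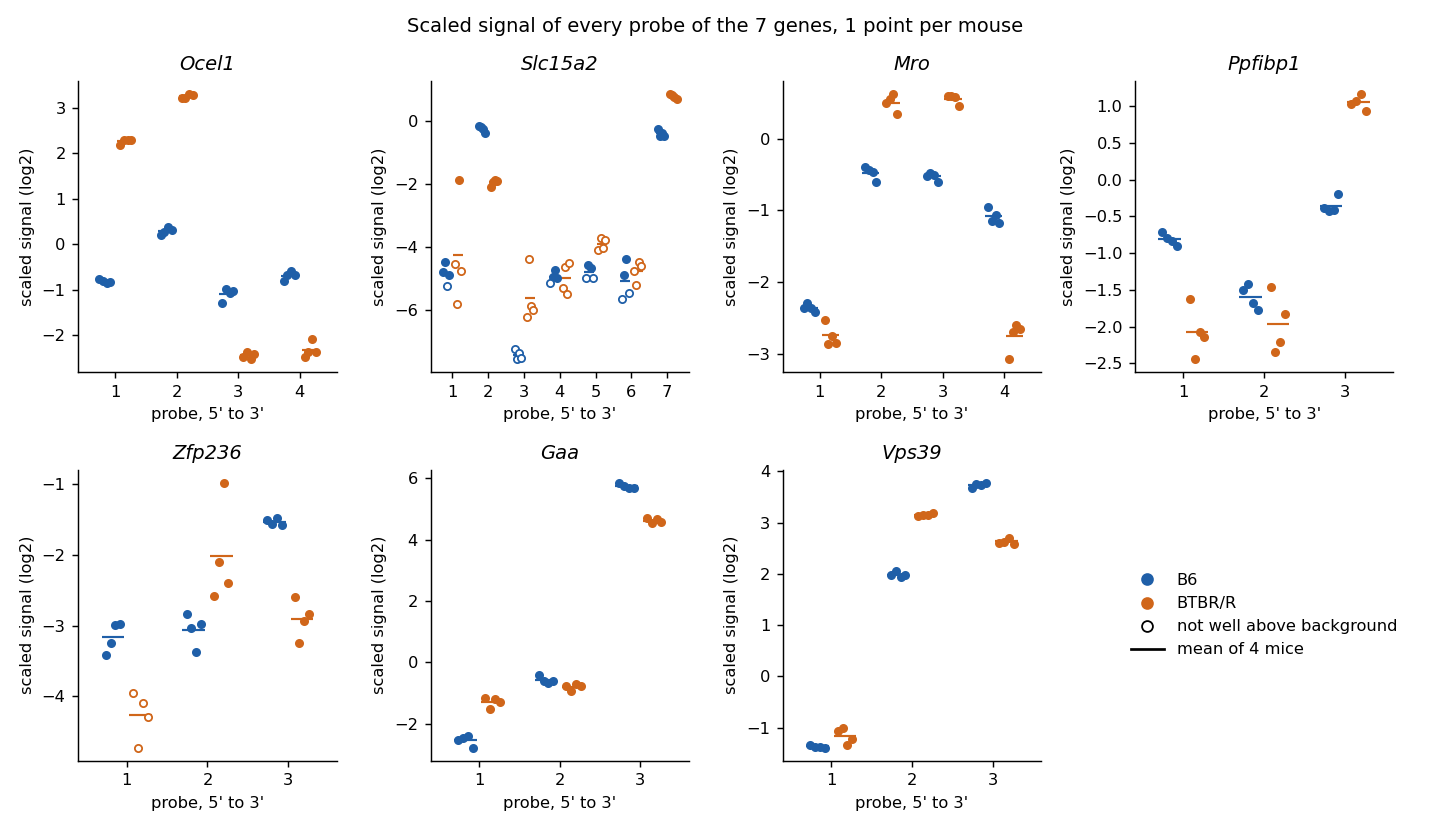
Scaled signal (log2, y axis) of every probe of the 7 genes, ordered 5′ to 3′ on the x axis, with 1 point per mouse (4 B6 in blue, 4 BTBR/R in orange), open points where the probe was not well above background, and a line at each mean. Orange lies above blue at some probes and below it at others within each gene, as at Vps39 probes 2 and 3, and a lone BTBR/R point at -0.98 stands out at Zfp236 probe 2.

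The order of rise and fall along the gene was not the same in all 7. At the 3′-most detected probe the signal was lower in BTBR/R in 5 genes (Ocel1, Mro, Zfp236, Gaa and Vps39) and higher in 2 (Slc15a2 and Ppfibp1). Detected probes spanned 1.76 kb in Zfp236 and 33.0 kb in Ppfibp1. The strains did not overlap at 20 of the 21 detected probes, all but the middle probe of Ppfibp1, against 32.6% of all detected probes; 16 of the 20 were chosen for a difference between the strains. The mean of a gene's detected changes was 0.76 for Ocel1 and from -0.26 (Slc15a2) to 0.09 (Vps39) for the others.

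**Figure D3:**
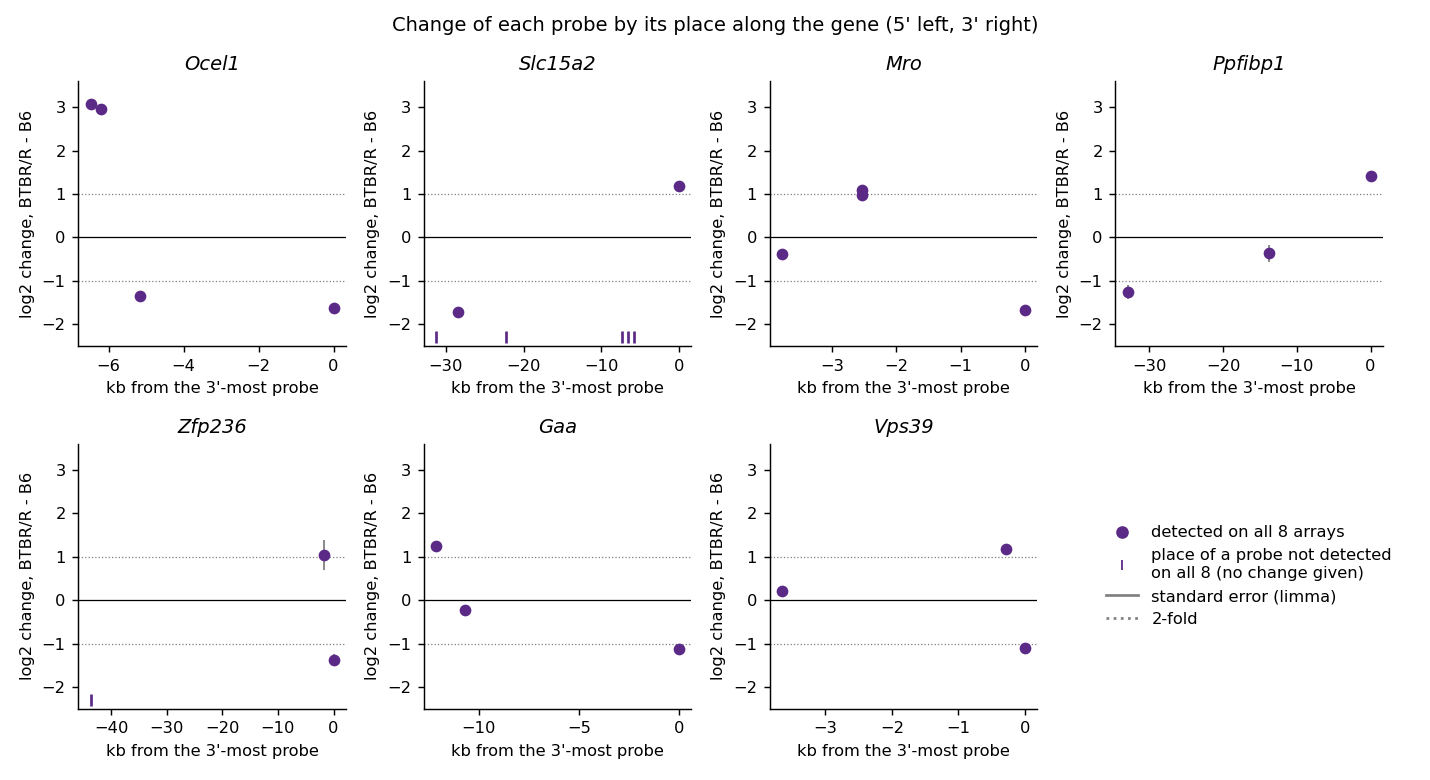
Log2 change (BTBR/R minus B6, y axis) of each probe detected on all 8 arrays by its distance in kb from the 3′-most probe of its gene (x axis, 3′ end at 0), with limma standard errors; ticks at the bottom mark the places of the other probes, and dotted lines mark 2-fold. Ocel1 and Gaa go from higher to lower towards the 3′ end, Slc15a2 and Ppfibp1 from lower to higher.

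Background correction moved the sizes more than the directions. With normexp correction of the raw intensities, every detected probe of the 7 genes kept its sign, and 10 of the 16 still met the rule. Both directions then remained past it in Ocel1, Slc15a2 and Vps39 only. The falling AK163762 probe of Ocel1 went from -1.35 to -0.93, and the rising probe of Gaa from 1.25 to 0.80. The Vps39 pair hardly moved, at 1.15 and -1.11.

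**Figure D4:**
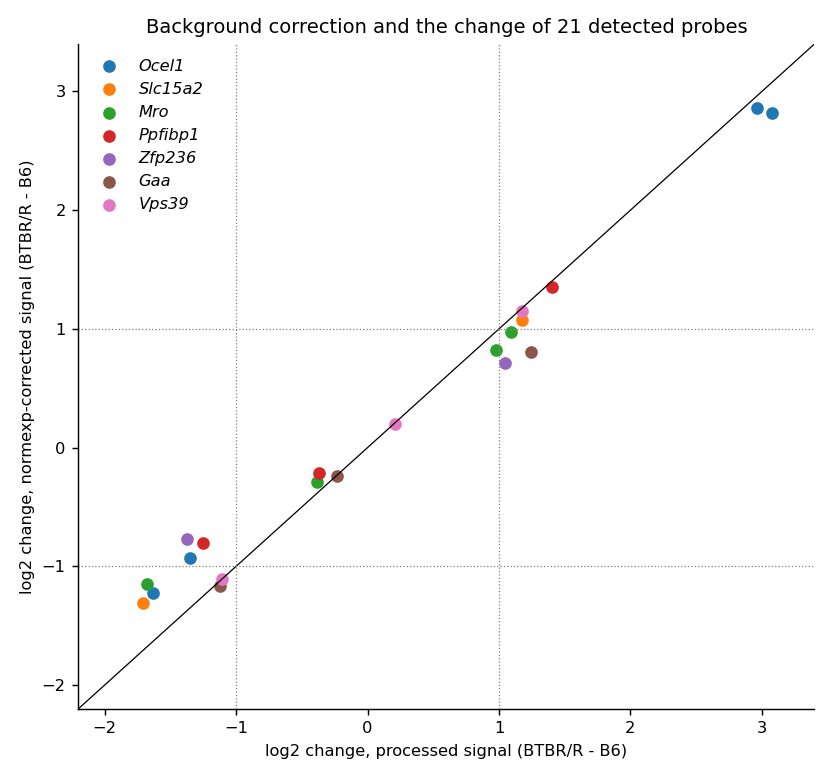
Log2 change (BTBR/R minus B6) of the 21 detected probes from the processed signal (x axis) against that after normexp correction (y axis), coloured by gene, with the line of equality and dotted lines at 2-fold. All points keep their sign, and those of Zfp236, Gaa, Mro, Ppfibp1 and Ocel1 that lie inside the dotted lines on the y axis but outside them on the x axis lost the 2-fold change.

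Genes beside the 7 were not used to choose them, so their probes were tested. Within 250 kb of the outermost probes of a member lay 167 probes of 98 other genes, of which 88 were detected. By limma, 4 of the 88 (4.55%) were called, 3 higher and 1 lower, against 2.20% of all detected probes. Near Vps39, both detected probes of Pla2g4e (a cytosolic phospholipase A2) rose, by 2.04 (SE 0.092) and 2.49 (SE 0.094), with limma adjusted p of 1.25e-05 and 5.76e-06, and with normexp correction the changes were 1.72 and 1.39. Near Ppfibp1, a probe of Stk38l (an NDR-family kinase) rose by 1.70 (SE 0.148, limma adjusted p = 5.34e-05), from -2.75 ± 0.31 to -1.05 ± 0.07 (SD, n = 4), and another of its probes changed by 0.87. With normexp correction the first changed by 1.09. Near Ocel1, Bst2 (tetherin, an interferon-induced antiviral protein) fell by 1.10 on the log2 scale (SE 0.111, limma adjusted p = 0.000133), but with normexp correction its change was -0.87, short of 2-fold, which left 3 called neighbours. The strains did not overlap at any of these 4 probes.

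The largest change among the neighbours was at a probe outside that count, because no B6 array detected it, and it is named here after its value was seen. It reads an intergenic RNA on the + strand at chr18:82875474-82875533, opposite in strand to Zfp236 and 66.7 kb from its probes. It was detected on 0 B6 arrays, at -7.33 to -7.03, and on all 4 BTBR/R arrays, at -0.19 to -0.01, and on the processed signal it was at least 33.1-fold higher in BTBR/R (limma adjusted p = 3.86e-08). With normexp correction its log2 change was 3.20, which is below that bound. That was the only called neighbour detected throughout 1 strain and not the other. Within the windows around Slc15a2, Mro, Zfp236 and Gaa, 0 of 40 detected probes were called by limma or by the methods' t-test, while 18 (45.0%) had an unadjusted p under 0.05 and 17 (42.5%) an adjusted one, so that nearly all of these missed the call on size. Over all detected probes these shares were 35.9% and 26.9%. The median change over the 88 probes was 0.01.

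**Figure D5:**
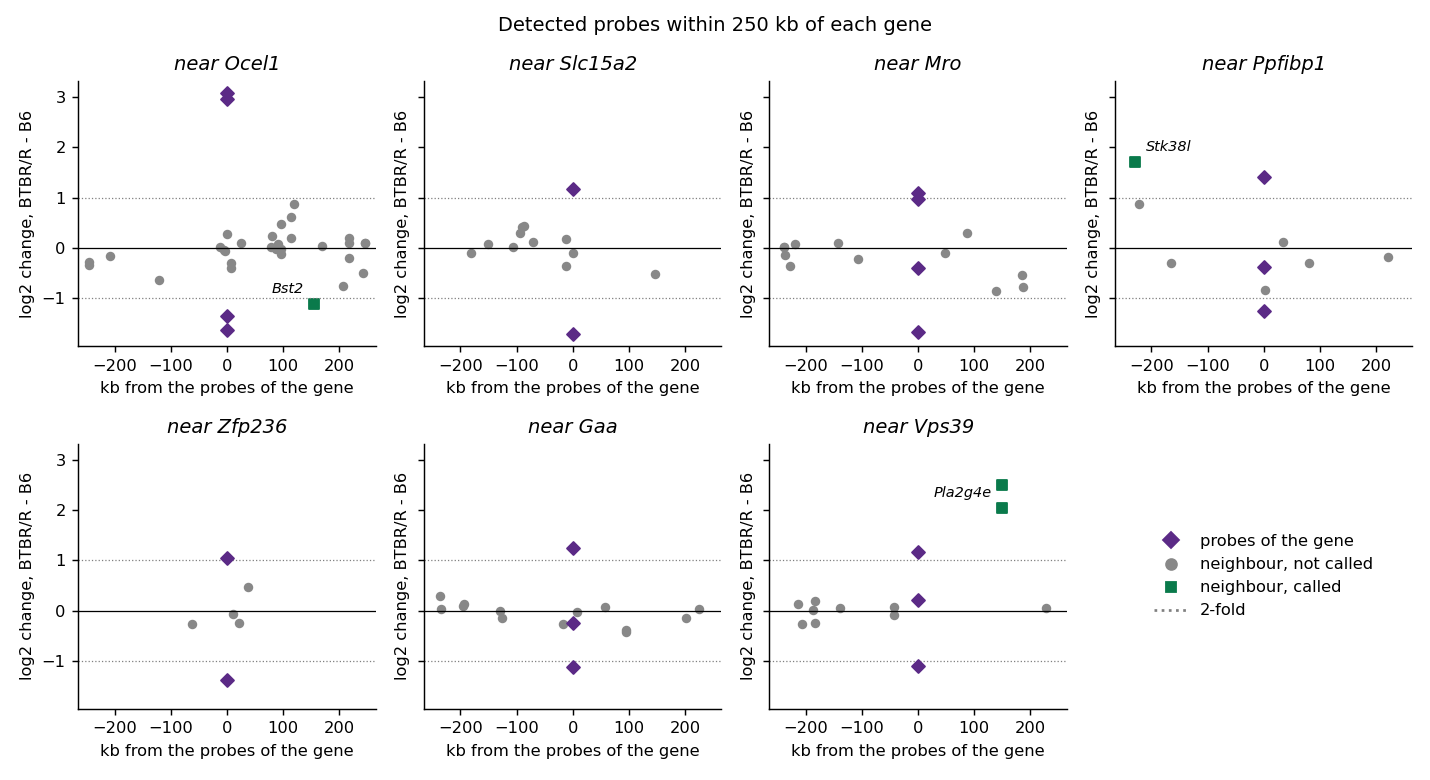
Log2 change (BTBR/R minus B6, y axis) of detected probes by distance in kb from the probes of each gene (x axis, 3′ side to the right), with the probes of the gene itself as diamonds at 0, called neighbours as green squares and other neighbours as grey circles. The opposed diamonds were chosen for changes past 2-fold and grey circles did not meet the call, so their separation follows from the rule. The 4 squares (Bst2, Stk38l and 2 probes of Pla2g4e) lie past 2-fold. The intergenic probe near Zfp236 that B6 arrays did not detect is not plotted.

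Few probes of the families and partners of the 7 genes were called. In 8 lists with 226 detected probes of 134 genes, 2 probes (0.885%) were called by limma, both lower in BTBR/R, against 2.20% of all detected probes, while 73 (32.3%) had an unadjusted p under 0.05 and 56 (24.8%) an adjusted one, against 35.9% and 26.9% of all detected probes. Both called probes belong to the partners of liprins, where 49 probes of 20 genes were detected. Ptprd, a receptor phosphatase that binds liprins and organises synapses, fell by 2.15 on the log2 scale at its probe for ENSMUST00000156656 (SE 0.088, limma adjusted p = 8.61e-06), with B6 mice at 2.35 to 2.63 and BTBR/R mice at 0.18 to 0.46. Its probes did not move together, since 2 for NM_011211 changed by 0.16 and 0.02. Kank1, a scaffold that binds liprin beta 1 at focal adhesions, fell by 1.08 at 1 of its probes (SE 0.083, limma adjusted p = 2.76e-05), from 0.76 ± 0.06 to -0.32 ± 0.15 (SD, n = 4).

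In the lists of the other 6 genes no detected probe was called by limma or by the methods' t-test. For the HOPS and CORVET tethering complexes and the Rab7 switch, with which Vps39 works, 31 detected probes ran from -0.45 to 0.60, 11 of them with an unadjusted and 8 with an adjusted p under 0.05. The 44 detected probes of lysosomal hydrolases ran from -0.87 to 0.73 (15 unadjusted, 13 adjusted under 0.05), and the 29 of glycogen metabolism from -0.96 to 0.18 (8 and 7). Peptide transporters and carnosine enzymes had 13 detected probes between -0.45 and 0.40 (3 and 3), and occludin and ELL proteins had 12 between -0.35 and 0.74 (4 and 4). The neighbouring zinc finger genes Zfp200 to Zfp299 had 45 between -0.74 and 0.49 (12 and 7). The maestro family could hardly be measured, with 3 detected of 18 probes, at 0.24 to 0.38 (3 and 2).

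Every one of the 51 marker genes measured for 8 cell types had a detected probe, so the tissue held the neuronal, striatal and glial markers its label implies. Summed over a list, as multiples of each array's 75th percentile, astrocyte markers were at 485 to 549 in B6 and 385 to 438 in BTBR/R, endothelial markers at 17.8 to 19.4 and 14.6 to 16.8, and red blood cell markers at 109 to 349 and 76.4 to 94.3. Sums of neuron, striatal projection neuron, oligodendrocyte, microglia and choroid plexus markers overlapped between the strains. An overlap of sums did not mean that the single probes were unchanged. Of 13 detected oligodendrocyte probes, 11 had an unadjusted limma p under 0.05 and 5 an adjusted one. Their changes ran from -0.80 to 0.48, with a median of -0.26. For the 16 detected astrocyte probes these counts were 8 and 7, with changes from -0.45 to 0.22 and a median of -0.08. In both lists 0 detected probes were called. Of the 96 detected marker probes limma called 5 (5.21%), against 2.20% of all detected probes. An unadjusted p under 0.05 was found for 41 (42.7%) and an adjusted one for 30 (31.25%), against 35.9% and 26.9% of all detected probes. Those called were 4 of the 5 detected red blood cell probes (lower) and 1 of Cx3cr1 in microglia (higher). The methods' t-test called only the Cx3cr1 probe. Cx3cr1 had a second detected probe with a change of -0.71, so its probes were opposed as well, though short of 2-fold on 1 side. The part of these shifts in the values of Slc15a2 and the other genes was not tested, and fewer cells of a type cannot be told apart from less RNA per cell in dissected tissue.

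The genes just outside the rule were close to those just inside it. The smaller of the largest rise and the largest fall was 1.04 for Zfp236, the last of the 7, and 0.96 for Rps13, the first beyond it. In Rps13, a ribosomal protein gene whose near-identical copies elsewhere in the genome make its probes uncertain, the probe for NM_026533 went from 5.84 ± 0.03 to 4.51 ± 0.04 (SD, n = 4), while that for BC011192, inside the same stretch, went from -1.53 ± 0.34 to -0.57 ± 0.59. In Tmem159, a lipid droplet protein, neighbouring probes for NM_145586 changed by -1.20 (SE 0.059) and 0.91 (SE 0.070). Dnajb4, a heat shock co-chaperone, had a fall of 1.05 at its 5′-most probe and changes between 0.14 and 0.87 at the other 4. Nyap2, a neuronal adaptor of phosphoinositide 3-kinase, had changes of -1.09, 0.87 and 0.11.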

How the data were processed

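RNA of 8 mice (4 B6, 4 BTBR/R) was labelled with Cy3 and hybridized to Agilent SurePrint G3 Mouse 8x60K v2 arrays. The authors deposited the spot intensities from Feature Extraction 10.7.3.1 (per the labels), whose processed signal is background subtracted and detrended, and log2 values from GeneSpring, which 99.985% of the time lay within 0.01 of a constant shift, per array, of the log2 processed signal. Each array held 62976 spots. Control spots and 36 to 52 outlier-flagged spots per array were dropped, spots of a probe were averaged, and the 75th percentile of the array was subtracted. Strains were compared with limma 3.58.1 in R 4.3.3 (lmFit, eBayes, Benjamini-Hochberg over 56605 probes) after the script was tested on simulated data. A call needed an adjusted p under 0.05 and 2-fold. Tables and plots were made in Python 3.11.15 (pandas 2.3.3, numpy 2.4.6, matplotlib 3.10.9). The number of arrays limits the precision, and detection is the software's well above background flag. Gene names and mm9 positions are the arrays' own. Slide and scan could not be blocked, because there was 1 of each.

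The 7 genes and the lists were chosen with earlier results of these data known. Named besides the 7 were called detected probes of the lists (at most 5 per list) and of neighbours within 250 kb, and the 5 other genes with the strongest opposition, of which 1 is not reported here. Alternatives were normexp (offset 50), quantile, median and detected-probe scaling, the authors' log2 values, limma with its trend and robust options, the methods' t-test, a filter on dim probes, a replicate block and leaving out each mouse.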

Additional observations from a re-analysis of the deposited data

Results flagged for a closer look

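Within a strain, 54 sets of 4 mice (27 probes in 2 strains) were searched for a value far from the other 3 by Dixon's ratio (the gap to the nearest mouse over the whole range), which flags about 1 in 20 sets by chance, and 2 were found. At the 5′ intron-spanning probe of Ocel1, BTBR/R replicate 1 was the lowest of its strain at 2.184, with the next mouse at 2.30 and a ratio of 0.959. That mouse is the 6-month-old one, and it remained far above all B6 mice. At the rising AY243876 probe of Mro, BTBR/R replicate 4 was the lowest at 0.4624, with the next mouse at 0.58 and a ratio of 0.863.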

How the results depend on the processing

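In all 17 alternatives each of the 7 genes kept detected probes of both signs, and no probe past the rule changed sign. Of 378 changes of member probes recomputed, 16 moved by more than the spread between mice. Leaving out 1 mouse gave 6 to 7 genes with both directions called, 11792 to 12929 probes called over the array, 23 to 27 near the 7 genes and 23 to 28 in the pathway lists. Of the detected probes, 4 near the genes and 2 in the lists were called each time. Zfp236 was the gene lost, whichever mouse was left out except BTBR/R replicate 1, and also with quantile or median scaling, the dim filter, the methods' t-test and the block. The cause was not tested. Normexp gave 3 genes with both directions, 563 calls over the array, 4 near the genes and 4 in the lists. Quantile normalization gave 2200, 5 and 9 calls, and the cause of these drops was not tested. The filter on dim probes, which tests fewer probes, gave 1557, 5 and 6. The dim filter and the tests do not change the fitted size of a probe's change. Replicate numbers did not pair the mice (same-number correlations -0.07 to 0.156). The replicate block gave 11693 calls over the array, 24 near the genes, 25 in the lists and 6 genes with both directions. Detection limits of 14.5 to 17.8 in B6 and 36.1 to 47.1 in BTBR/R leave the 5 dim probes of Slc15a2 without a measured change and the 5′ probe of Zfp236 with a bound only.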
